A study of Mus musculus with 6 samples.

Results

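The genes described here are 10 that mark or feed 2 related receptor tyrosine kinase systems of the gut wall. They are Kit, its ligand gene Kitl, 4 other genes of interstitial cells of Cajal (Ano1, Etv1, Prkcq and Gjc1), the Pdgf receptor genes Pdgfra and Pdgfrb, and the ligand genes Pdgfa and Pdgfc. Each was read from the probe set annotated to that symbol alone with the highest mean over the arrays. All 10 were measured, out of 19938 genes. The measurements came from stomachs of mouse embryos at E13.5 (days of gestation) on 6 Affymetrix arrays of total RNA. In the 3 arrays called SmoM2 the labelled genotype was Nkx3.2Cre;R26-SmoM2, in which Cre driven by Nkx3-2, active in mesenchyme of the stomach, switches on an always active form of the hedgehog transducer Smoothened from the Rosa26 locus. The 3 control arrays are labelled wild type, and the labels name no allele of Cre or of R26-SmoM2 in them. The comparison asks how these genes differ when always active Smoothened is added in the mesenchyme.

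Interstitial cells of Cajal are mesenchymal cells that pace the contractions of gut smooth muscle. They arise from precursors that carry Kit, and they need Kit ligand, which smooth muscle, neurons and epithelium can provide. Pdgf ligands act through a pair of related receptors. In the gut Pdgfa comes largely from epithelium and acts on mesenchyme that carries Pdgfra, while Pdgfrb marks pericytes and other mesenchymal cells. Kit is also made by mast cells, melanoblasts and blood progenitors. All cells of the stomach were measured at once, so fewer cells of a type and less RNA per cell cannot be told apart.

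Hedgehog targets, the check on the genotype, were all higher on every SmoM2 array, and 5 of the 6 passed the threshold. Hhip, an inhibitor of the pathway, rose 2.43-fold (limma adjusted p = 0.000175) and passed without each array in turn. The receptor gene Ptch1 rose 1.40-fold (adjusted p = 0.0174), a call lost without wild type 1 (0.102), wild type 2 (0.0745) or SmoM2 3 (0.0749). Gli1, a target and effector, missed at 0.42 (adjusted p = 0.0727). Array medians ran from 8.56 to 8.62 on the log2 scale, and 75th percentiles from 10.02 (SmoM2 1) to 10.16. Wild type 1 stood apart in sex-linked genes: Xist was at 7.11 there and at 11.43 to 12.37 on the others. The mean of 3 Y-linked genes ran from 9.07 to 10.37 in wild type and from 8.71 to 9.27 in SmoM2. With that mean as a covariate, of 24 named genes that passed, Hhip, Foxf2, Myocd and Nefm still did and 20 did not, Ptch1 among them (adjusted p = 0.325). Log2 changes moved unequally in this fit: Ptch1 from 0.48 to 0.44, Myl9 from 0.61 to 0.66 and Nefl from -0.84 to -0.58. The covariate partly follows genotype and takes up a degree of freedom, so sex and genotype cannot be fully told apart. Whether replicates were separate embryos or litters is not in the labels, and p-values then cover only how far these samples vary, which may be technical.

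None of the 10 genes passed the threshold (limma adjusted p under 0.05 over all genes), where 0.983% of all genes did, 0.326% higher and 0.657% lower. That is 65 genes higher and 131 lower, against 36 and 47 with the arrays centred on their 75th percentile. At an unadjusted limma p under 0.05 there were 6 of the 10, against 10.5% of all genes. The same 6 had groups that did not overlap, which held for 15.7% of all genes. Kit, Kitl and Pdgfrb were lower in every SmoM2 array than in any wild type array, as were 10.1% of all genes. Ano1, Pdgfa and Pdgfc were higher in every SmoM2 array, as were 5.64% of all genes. In Etv1, Prkcq, Gjc1 and Pdgfra the groups overlapped. The median log2 change was 0.02 over the 10 genes and 0.0018 over all genes.

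The starts of 3 of the 6 genes whose groups did not overlap are shown for the letters just upstream: Kit and Kitl, a receptor and its ligand that were both lower, and Pdgfc, a ligand that was higher. RefSeq promoter windows on GRCm38.p6 were at hand for 8 of the 10 genes, in 11 windows. The 250 bases before an annotated start are printed, all on the plus strand, for Kit at chr5:75574737-75574986, Kitl at chr10:100015571-100015820 and Pdgfc at chr3:81036166-81036415. Capitals mark matches, on either strand, to a GC box (GGGCGG), an Ets core (CCGGAA), the letters TATAAA (called TATA box hereafter) and, with up to 1 base off, a Gli site (GACCACCCA).
Kit: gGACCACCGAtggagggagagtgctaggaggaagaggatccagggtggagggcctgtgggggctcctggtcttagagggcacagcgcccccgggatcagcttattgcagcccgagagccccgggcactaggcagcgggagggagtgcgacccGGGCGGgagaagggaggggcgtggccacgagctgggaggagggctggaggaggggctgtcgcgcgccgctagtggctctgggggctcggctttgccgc
Kitl: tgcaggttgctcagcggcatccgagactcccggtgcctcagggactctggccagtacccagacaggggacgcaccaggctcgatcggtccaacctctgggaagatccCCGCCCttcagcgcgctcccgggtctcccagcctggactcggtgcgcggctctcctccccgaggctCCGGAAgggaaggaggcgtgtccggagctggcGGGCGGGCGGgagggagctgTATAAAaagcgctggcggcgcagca
Pdgfc: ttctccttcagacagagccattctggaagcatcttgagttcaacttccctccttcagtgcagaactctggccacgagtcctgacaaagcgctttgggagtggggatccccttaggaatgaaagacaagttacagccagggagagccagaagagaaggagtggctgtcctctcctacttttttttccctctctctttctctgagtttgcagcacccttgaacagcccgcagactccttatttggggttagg
The Kit window holds a match 1 base off the Gli site at its far end, 249 bases before the start, and a GC box 98 bases before it. A match of that looseness was in 2 of the 11 windows of the 10 genes (Kit and Etv1) and in 5.79% of the 32851 windows of this length in the table. An exact Gli site was in 0 of the 11 and in 0.225% of all windows. The Kitl window holds a TATA box 25 bases before the start, an Ets core at 77 bases and GC boxes at 41, 45 and 143 bases, the first 2 of them overlapping. The first annotated start of Kitl lies 206 bases before the one used. GC boxes were in 7 of the 11 windows and in 32.7% of all windows, TATA boxes in 2 (of Etv1 and Kitl) and in 12.4%, and Ets cores in 1 and in 12%. Windows of the same gene can overlap. The E-box CACGTG, also searched, was in 6.02% of all windows and in 0 of the 11. The Pdgfc window had 0 of these matches, with 50.8% G and C against 70.8% for Kit and 69.2% for Kitl. These are matches of letters and do not show that a factor binds.

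Kit, the receptor that precursors of interstitial cells need, had log2 signals of 10.57, 10.74 and 10.70 in wild type 1, 2 and 3 and of 10.09, 10.40 and 10.29 in SmoM2 1, 2 and 3. The highest SmoM2 array stood 0.17 below the lowest wild type array. The means ± SD were 10.67 ± 0.09 and 10.26 ± 0.16 (n = 3 each), a log2 change of -0.41 (SE 0.09, 95% interval -0.62 to -0.20; 1.33-fold lower; limma adjusted p = 0.0931). Leaving out SmoM2 2 alone brought Kit past the threshold, at a log2 change of -0.48 and an adjusted p of 0.0497.

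Kitl encodes the Kit ligand, also called stem cell factor. Its signals were 10.29, 10.19 and 10.16 in wild type and 9.69, 9.90 and 9.88 in SmoM2. The gap between the groups was 0.26, wider than the spread within either of them. The log2 change was -0.39 (SE 0.08, 95% interval -0.57 to -0.21; 1.31-fold lower; adjusted p = 0.0636). In Kit and in Kitl alike SmoM2 1 was the lowest array.

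Of the other cells that carry Kit, mast cells and melanoblasts had markers mostly at the level of dim probe sets. No list was drawn up for blood progenitors. Genes of erythroid cells and leukocytes were read instead, most of them above the dim level. That level was taken as the 95th percentile of 1194 olfactory and vomeronasal receptor genes, 7.93 to 8.25 over the arrays. Of 8 mast cell markers 7 were above it on 0 arrays, and their list mean was 6.93 to 7.13 in wild type and 6.98 to 7.13 in SmoM2. Mcpt4, a mast cell protease, had a log2 change of 0.15 and Fcer1a, a chain of the IgE receptor, of 0.14 (adjusted p = 0.685 and 0.506), both at the dim level. The mast cell marker above it on all 6 arrays was Hdc, with a mean of 8.66 in wild type and 8.64 in SmoM2. Of 5 melanoblast markers 3 were above it on 0 arrays, with list means of 7.51 to 7.81 and 7.56 to 7.77. In that list Tyrp1 was at 0.09 and Mlana at 0.08 (adjusted p = 0.847 and 0.909). Erythroid genes were above the dim level on all 6 arrays in 5 of 5 cases, with 0 past the threshold and list means of 10.94 to 11.11 in wild type and 10.78 to 10.91 in SmoM2. Without Hbb-bh1, an embryonic globin gene with the largest change of the list, the groups overlapped. Leukocyte genes had 6 of 6 changes negative and 0 past the threshold, with list means of 8.78 to 8.89 and 8.46 to 8.65. Both means were lower on every SmoM2 array, as Kit was. These lists do not read blood progenitors, whose part in the Kit values was not tested.

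Ano1, the calcium-activated chloride channel that gives interstitial cells their pacemaker current, went the other way. Its signals were 10.45, 10.54 and 10.40 in wild type and 10.67, 10.71 and 10.80 in SmoM2. Each SmoM2 array was above each wild type array, by at least 0.13. The log2 change was 0.26 (SE 0.07, 95% interval 0.10 to 0.42; 1.20-fold higher; adjusted p = 0.165).

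The other 3 genes of interstitial cells had overlapping groups. Etv1, an Ets factor that acts downstream of Kit in these cells, had signals of 11.36, 11.28 and 11.21 in wild type and 11.18, 11.28 and 11.18 in SmoM2. Its log2 change was -0.07 (95% interval -0.23 to 0.09; adjusted p = 0.81). The probe set used for Etv1 is numbered among probe sets of chromosome 13, with 0 of its 10 neighbours in number on chromosome 12, where Etv1 lies. A second Etv1 probe set (10395457), with 10 of 10 neighbours on chromosome 12, gave a log2 change of -0.08.

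Prkcq, the protein kinase C theta used as a marker of interstitial cells, stood at 8.76, 8.58 and 8.58 in wild type and at 8.48, 8.75 and 8.78 in SmoM2. The spread within each group was larger than the difference of 0.02 (95% interval -0.19 to 0.24; adjusted p = 0.97), whose sign turned without wild type 2, wild type 3, SmoM2 2 or SmoM2 3. Prkcq is also made by T cells. Of the 3 T cell markers measured 2 were above the dim level on 0 arrays, and the list mean was 7.56 to 7.84 in wild type and 7.68 to 7.83 in SmoM2, with Cd3e at 0.14 and Cd3d at 0.09 (adjusted p = 0.758 and 0.875). Gjc1, the gap junction protein connexin 45, which couples interstitial cells and smooth muscle, had 11.34, 11.35 and 11.26 in wild type and 11.33, 11.46 and 11.44 in SmoM2. Its log2 change was 0.09 (95% interval -0.06 to 0.25; adjusted p = 0.737).

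**Figure D1:**
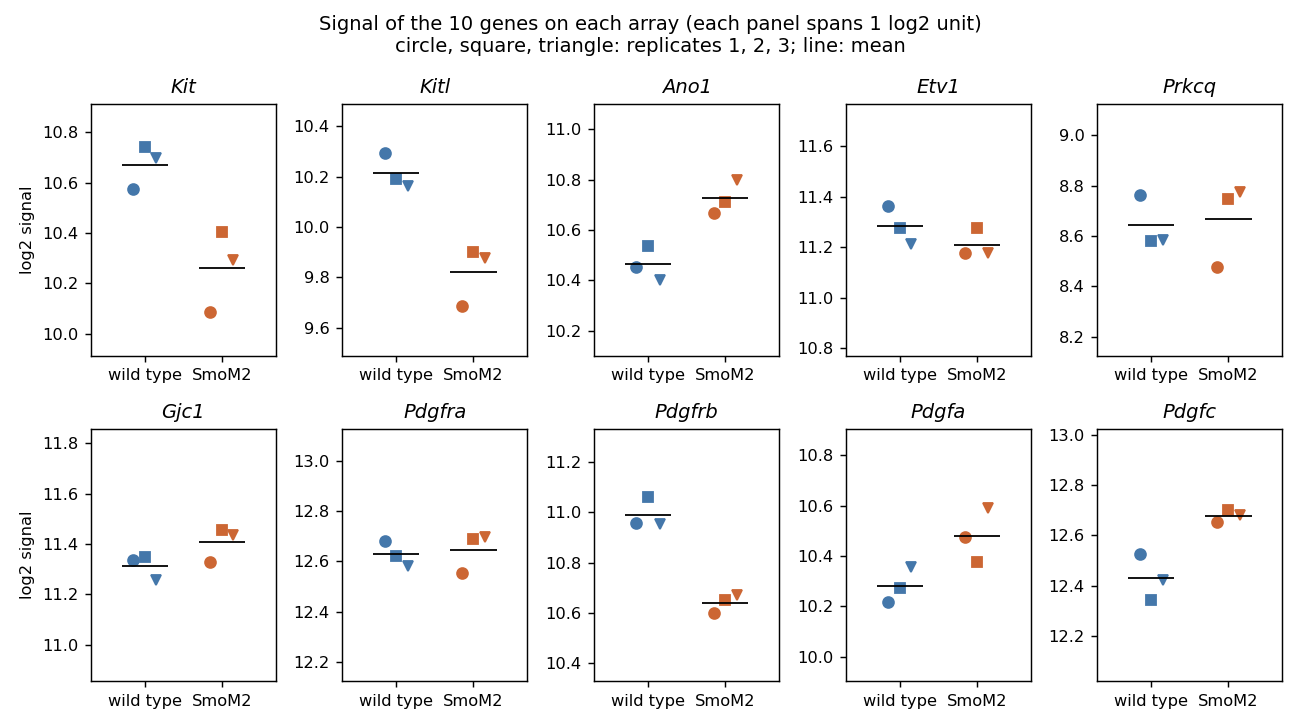
Log2 signal of each of the 10 genes on each array, wild type in blue and SmoM2 in orange, with replicates 1, 2 and 3 as circle, square and triangle and the group mean as a line. Each panel spans 1 log2 unit around its own values. The orange points lie below the blue ones for Kit, Kitl and Pdgfrb and above them for Ano1, Pdgfa and Pdgfc.

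Of the Pdgf receptors, Pdgfrb was lower on each SmoM2 array and Pdgfra had overlapping groups. Pdgfrb had signals of 10.96, 11.06 and 10.95 in wild type and of 10.60, 10.65 and 10.67 in SmoM2. The groups were 0.28 apart, the widest gap of the 10 genes, and each was tight (SD 0.06 and 0.04, n = 3). The log2 change was -0.35 (SE 0.07, 95% interval -0.50 to -0.20; 1.27-fold lower), at a limma adjusted p of 0.0508. Pdgfra had 12.68, 12.62 and 12.58 in wild type and 12.55, 12.69 and 12.70 in SmoM2. The groups overlapped fully, with a log2 change of 0.02 (95% interval -0.14 to 0.18; adjusted p = 0.967). The sign of that change turned without wild type 3, SmoM2 2 or SmoM2 3.

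The ligand genes were higher in the SmoM2 arrays without passing. Pdgfa had signals of 10.22, 10.27 and 10.36 in wild type and of 10.48, 10.38 and 10.59 in SmoM2. Its groups were the closest of the 6 that did not overlap, 0.02 apart, with a log2 change of 0.20 (95% interval 0.02 to 0.38; adjusted p = 0.39). Pdgfc encodes a ligand that must be cut by a protease before it binds. Its signals were 12.53, 12.34 and 12.42 in wild type and 12.65, 12.70 and 12.68 in SmoM2. The 3 SmoM2 arrays had an SD of 0.03, and the lowest of them stood 0.13 above the highest wild type array. The log2 change was 0.25 (95% interval 0.09 to 0.41; 1.19-fold higher; adjusted p = 0.195).

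For each of the 6 genes whose groups did not overlap, an exact permutation test of 3 against 3 gave a two-sided p of 0.1, the smallest it can give. Over all genes, dim ones included, the changes ran from -0.24 at the 5th percentile to 0.17 at the 95th. Those of Kit, Kitl and Pdgfrb lay below that range and those of Ano1, Pdgfa and Pdgfc above it.

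**Figure D2:**
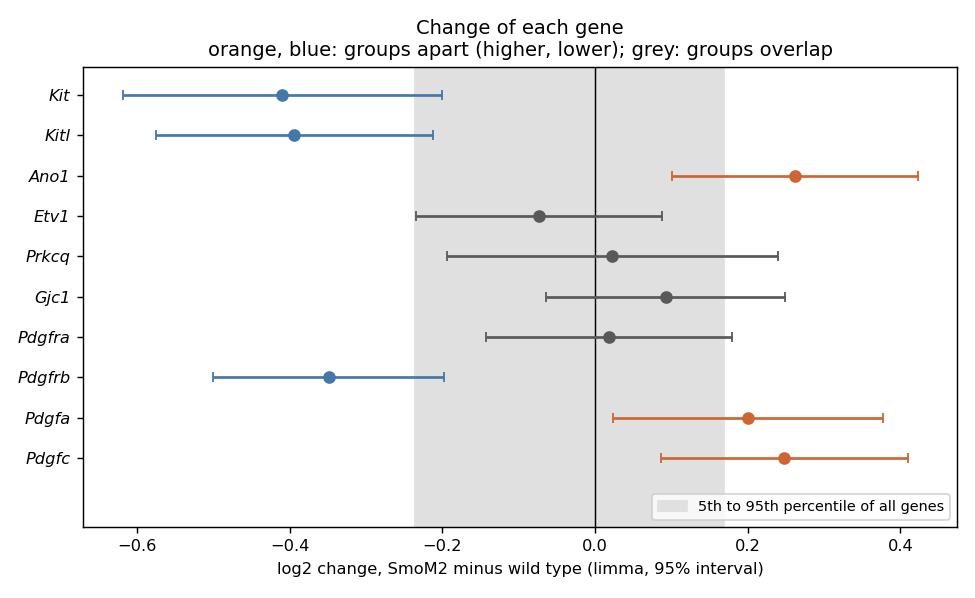
Log2 change of each gene (SmoM2 minus wild type, limma) with its 95% interval. Blue and orange mark genes whose groups did not overlap, lower and higher, grey those that did, and the band runs from the 5th to the 95th percentile of all genes. The intervals of the 6 coloured genes do not reach 0, from Kit at -0.41 to Ano1 at 0.26.

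Among the genes around the Pdgf receptors, the ligand gene Pdgfd rose. Of the 18 other Pdgf pathway genes measured, 1 rose, 0 fell and 17 did not pass, and the median change was -0.05 with 13 negative. Pdgfd, which binds the receptor encoded by Pdgfrb, had signals of 9.38, 9.21 and 9.23 in wild type and of 9.77, 9.98 and 9.65 in SmoM2. All SmoM2 arrays were above all wild type arrays (log2 change 0.52, SE 0.10, 1.44-fold; adjusted p = 0.0393). The call did not hold without any 1 of the 6 arrays, at adjusted p from 0.056 to 0.149, nor with the Y-linked covariate (0.342). It was also lost with the arrays centred on their 75th percentile (0.0547). Pdgfb, the remaining ligand gene, had a change of 0.08 (95% interval -0.13 to 0.30; adjusted p = 0.845) and overlapping groups. Pdgfrl, a receptor-like gene without a kinase, had a change of -0.25 (adjusted p = 0.164).

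The largest change in that list was in Lrp1, an endocytic receptor that binds Pdgf receptors and modulates their signal. It stood at 10.47, 10.84 and 10.29 in wild type and at 9.78, 10.02 and 9.81 in SmoM2, with a log2 change of -0.67 (SE 0.13, 1.59-fold lower; adjusted p = 0.0539). All 3 SmoM2 arrays were below the wild type ones. Without wild type 3 or SmoM2 2 it passed, at an adjusted p of 0.0175 and 0.0481. These 3 genes beside Pdgfd (Pdgfb, Pdgfrl and Lrp1) were singled out with their values known.

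The other genes of interstitial cells moved in both directions. Of 15 measured 0 passed, 8 changes were positive and 7 negative, and the median was 0.0004. The groups did not overlap in 3 higher and 3 lower genes, as in 5.64% and 10.1% of all genes. Lrig1, a membrane protein that restrains receptor tyrosine kinases and marks some interstitial cells, was the largest at 0.37 (adjusted p = 0.0659), from 10.32, 10.19 and 10.19 to 10.53, 10.59 and 10.70. It passed, among other settings, with the arrays centred on their median (adjusted p = 0.0443), without the genes below the median signal (adjusted p = 0.033) and with quantile normalization repeated (adjusted p = 0.02). Slc12a2, a chloride cotransporter of these cells, was at -0.31 (adjusted p = 0.352). Thbs4, a thrombospondin, and Hcn4, a pacemaker channel, both used as markers of interstitial cells, were at -0.07 and -0.05 (adjusted p = 0.847 and 0.856). Gpr20, a receptor made in the same cells and singled out with its value known, was at 0.22 (adjusted p = 0.259). All 7 defining markers (Kit, Ano1, Etv1, Prkcq, Gjc1, Thbs4 and Hcn4) were above the dim level on all 6 arrays. Their mean was 10.04 to 10.07 in wild type and 9.95 to 10.06 in SmoM2. None of them is made by interstitial cells alone.

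Downstream of Kit, 0 of 21 signal transduction genes passed. Of their changes 17 were negative and 4 positive, where 9817 of all 19938 genes had a negative change. The median was -0.05, against -0.02 over the 11857 genes with signals above the median of all probe sets. In 5 genes the SmoM2 arrays were lower without overlap, as in 10.1% of all genes. Pik3r1, the regulatory subunit of phosphoinositide 3-kinase that Kit recruits, was at -0.24 (adjusted p = 0.299), and the adaptor gene Gab2 at -0.22 (adjusted p = 0.187). Gab2 stood at 10.40, 10.38 and 10.37 in wild type and at 10.12, 10.19 and 10.18 in SmoM2, so its groups were apart.

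Genes induced by receptor tyrosine kinase signalling, the Pea3 relatives of Etv1 and feedback inhibitors, had no call. Of 11 measured 0 passed and 10 had overlapping groups, with a median of -0.04. The largest changes were Il17rd, which inhibits Fgf signalling, at -0.18 (adjusted p = 0.613) and the phosphatase gene Dusp6 at 0.15 (adjusted p = 0.594). Of 22 paralogs of the 10 genes 1 rose, Pdgfd, and 0 fell. Gja5, the vascular connexin 40 and a relative of Gjc1, was at -0.47 (adjusted p = 0.0872), from 9.76, 9.77 and 9.78 to 9.05, 9.49 and 9.35. Without SmoM2 2 it passed, at an adjusted p of 0.035. Gja5 was also singled out with its value known.

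**Figure D3:**
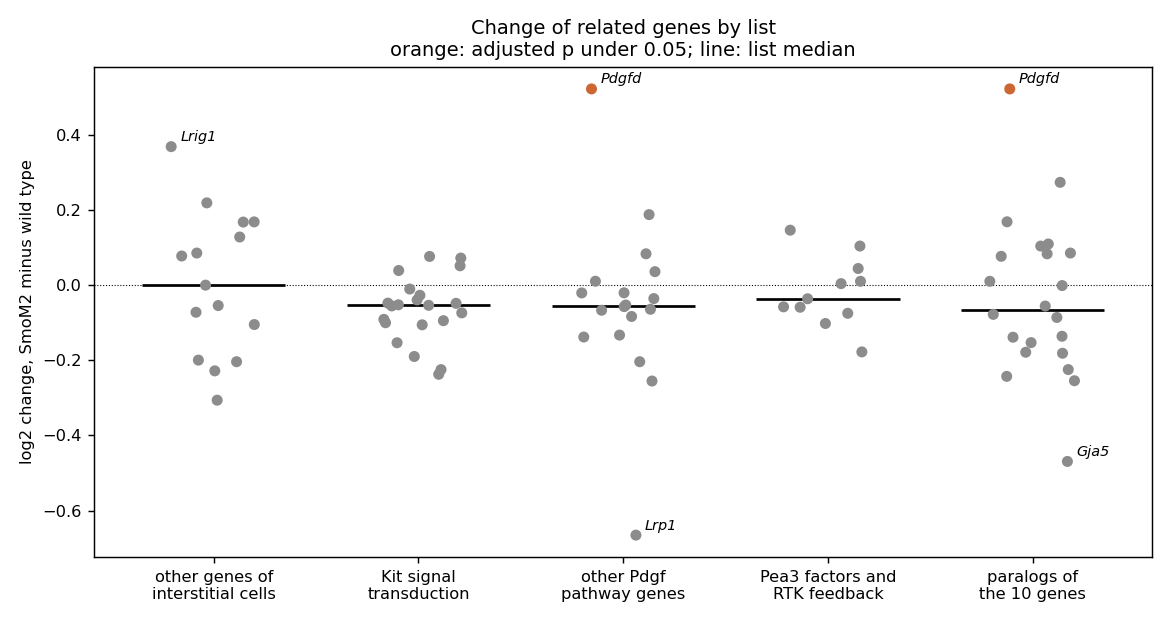
Log2 change (SmoM2 minus wild type) of each measured gene of 5 lists around the 10 genes, with the list median as a line and orange for an adjusted p under 0.05. The list medians lie between -0.07 and 0.0004, and Pdgfd, which is in 2 of the lists, is the gene that passed.

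Pericytes carry Pdgfrb, and their gene Rgs5, a regulator of G protein signalling, fell 1.65-fold (10.16, 10.07 and 9.89 to 9.19, 9.44 and 9.33; log2 change -0.72, adjusted p = 0.0113). Of the 7 pericyte genes this was the 1 that passed, and without wild type 1 or SmoM2 3 it no longer passed, at 0.0581 and 0.0762 (limma adjusted p), nor with the Y-linked covariate, at 0.185. The pericyte list mean was 8.93 to 9.05 in wild type and 8.78 to 8.85 in SmoM2, lower on each SmoM2 array through Rgs5. Without Rgs5 the groups overlapped, at 8.77 to 8.86 and 8.67 to 8.80. Higd1b, another pericyte marker, was above the dim level on 0 arrays. Endothelial genes had 0 of 7 past the threshold and 7 negative changes, with list means of 10.90 to 10.93 and 10.64 to 10.79. In that list Kdr, the Vegf receptor, was at -0.36 and Tek, the angiopoietin receptor, at -0.32 (adjusted p = 0.101 and 0.225). The part of these cells in the Pdgfrb values was not tested.

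Of 10 genes listed for mesenchyme that carries Pdgfra, 4 passed, 3 higher and 1 lower, while Pdgfra itself had overlapping groups. They were Foxl1, a forkhead factor (log2 change 0.68, adjusted p = 0.0188), the growth factor genes Nrg1 (0.44, adjusted p = 0.0201) and Bmp5 (0.43, adjusted p = 0.0303), and the transcription factor gene Sox6 (-0.40, adjusted p = 0.0349). All 4 lost the call without wild type 1, wild type 2, SmoM2 1 or SmoM2 3, Bmp5 also without SmoM2 2 and Sox6 also without wild type 3, at adjusted p from 0.0521 to 0.203, and all 4 with the Y-linked covariate, at 0.305 to 0.582. With the arrays centred on their 75th percentile all 4 were lost as well, at adjusted p from 0.0538 to 0.0968. Of the 10 changes in the list 7 were positive and 3 negative. The list mean was 9.99 to 10.05 in wild type and 10.17 to 10.28 in SmoM2.

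Smooth muscle, which neighbours interstitial cells and can make Kit ligand, had 5 of 11 genes higher and 1 lower, with list means of 10.05 to 10.11 and 10.35 to 10.54. Myocd, its coactivator, rose 1.82-fold (adjusted p = 0.00111), Actg2, an actin of smooth muscle, 1.61-fold, Myl9, a myosin light chain, 1.53-fold, and the actin-binding Synpo2 1.50-fold (adjusted p = 0.0405, 0.0286 and 0.0142). Myocd passed without each array in turn, while the other 3 lost the call without wild type 1 or SmoM2 3, and Actg2 and Myl9 also without wild type 2 or SmoM2 1 (adjusted p from 0.0665 to 0.194). With the Y-linked covariate these 3 stood at 0.119 to 0.377. Centred on the 75th percentile, Actg2 and Myl9 stood at adjusted p of 0.105 and 0.0697. Of the 11 changes 10 were positive, and 5 of the genes did not pass. The 1 gene that fell was Des, at -0.54 (adjusted p = 0.0263). Kitl was lower and Ano1 higher on the same arrays. The part of smooth muscle in either was not tested.

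Epithelium, the usual source of Pdgfa and one of Kitl, had 6 of 9 genes lower and 0 higher, with list means of 10.34 to 10.45 and 9.87 to 9.98. Esrp1, a splicing factor, fell 1.60-fold (adjusted p = 0.0245), the tight junction gene Cldn6 1.58-fold (adjusted p = 0.0121), the cadherin gene Cdh1 1.49-fold (adjusted p = 0.0111) and the keratin gene Krt18 1.48-fold (adjusted p = 0.0168). All 4 lost the call without wild type 1 or SmoM2 3, and Esrp1 and Krt18 also without wild type 2 (adjusted p from 0.0673 to 0.133). With the Y-linked covariate they stood at 0.190 to 0.427. Kitl was lower on the arrays where these were lower, and Pdgfa was higher. The part of epithelium in either was not tested.

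Among the remaining markers, 3 of 6 mesothelial genes fell (Bnc1 at -0.72, Wt1 at -0.52 and Krt7 at -0.40), as did 3 of 10 genes of enteric neurons and glia (Dcx at -1.07, Nefm at -1.01 and Nefl at -0.84). Nefm passed without each array in turn. Dcx lost its call without SmoM2 3 and the other 4 without at least 3 arrays, SmoM2 3 among them. With the Y-linked covariate those 5 stood at adjusted p from 0.0887 to 0.436. Nefl, Wt1 and Krt7 also lost the call with the arrays centred on their 75th percentile, at 0.0527, 0.0728 and 0.129. Of the 10 enteric genes 5 changes were positive and 5 negative, with a median of -0.03. The largest positive change among them was that of Ednrb, at 0.32 (adjusted p = 0.277). Of 6 leukocyte genes 0 passed, with Pf4 at -0.48 and Lyz2 at -0.39 (adjusted p = 0.205 and 0.0739). Of 5 erythroid genes 0 passed either, with Hbb-bh1 at -0.38 and Alas2 at -0.37 (adjusted p = 0.215 and 0.0928). In the list of stomach mesenchyme the forkhead genes Foxf2 (0.91) and Foxf1 (0.37) were the 2 of 6 that rose. Foxf1 did so only with all 6 arrays in the fit, without the covariate and without centring on the 75th percentile (adjusted p = 0.0766 when centred). Both are also among the hedgehog targets above, as is Foxl1, so their calls are counted in more than 1 list. Of the 6 changes 3 were positive and 3 negative, with a median of -0.04. Gata4 was at -0.36 (adjusted p = 0.0532), lower on every SmoM2 array. All 6 genes were above the dim level on every array.

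**Figure D4:**
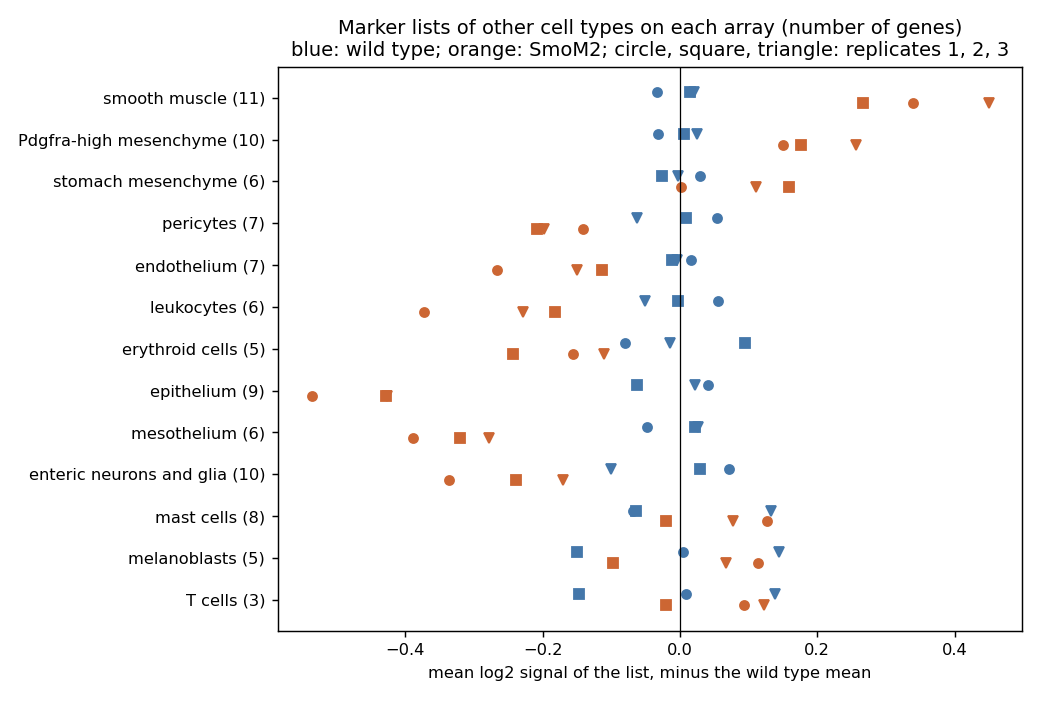
Mean log2 signal of each marker list on each array, minus the wild type mean of that list, with wild type in blue and SmoM2 in orange and replicates 1, 2 and 3 as circle, square and triangle. Smooth muscle and the list for mesenchyme that carries Pdgfra (labelled Pdgfra-high mesenchyme) stood higher on all SmoM2 arrays. Epithelium, mesothelium, endothelium, leukocytes, erythroid cells, enteric neurons and glia, and pericytes stood lower, the last 3 of these only with the gene of largest change in the mean (Hbb-bh1, Dcx and Rgs5), and the other lists overlapped.

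Kit sits between Pdgfra and the Vegf receptor gene Kdr on chromosome 5, with no other protein-coding gene between them in the RefSeq table. The 3 neighbours had log2 changes of 0.02 (Pdgfra), -0.41 (Kit) and -0.36 (Kdr). Gsx2, on the far side of Pdgfra, was at 0.24 (adjusted p = 0.384), and Srd5a3, beyond Kdr, at -0.11 (adjusted p = 0.718).

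The genes whose profiles were most like those of 3 members were found by the root mean square difference of mean-centred log2 signals over the 6 arrays. Nearest to Kit were Nynrin (0.033), Anpep (0.037) and Scube3 (0.042), with log2 changes of -0.40, -0.40 and -0.36. Nearest to Kitl were Tmem54 (0.018), Sesn3 (0.020) and Jup (0.020), at -0.39, -0.41 and -0.38. Of these 6 genes Sesn3 passed the threshold (adjusted p = 0.0491). Tmf1, Apbb2 and Tarbp2 were nearest to Pdgfra (0.0096 to 0.0102), with changes of 0.03, 0.03 and 0.0024. With 6 arrays and 19938 genes such closeness is a description.

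The arrays of a group did not stand equally for these genes. SmoM2 1 was the lowest SmoM2 array in 8 of the 10 genes, where it was so in 42.6% of all genes. In wild type, replicate 3 was the lowest in 6 of the 10 genes and in 29.7% of all genes. SmoM2 1 also had the lowest 75th percentile of all probe sets, 10.02 against 10.09 to 10.16 on the others. Its dim level was the highest, 8.25 against 7.93 to 8.14. All 10 genes were above the dim level on all 6 arrays, while the shares of all genes include dim ones. The part of this scale in the values of the 10 genes was not tested. With the mean Y-linked signal as a covariate the changes of Kit, Kitl and Pdgfrb were -0.42, -0.29 and -0.32 (adjusted p = 0.629, 0.876 and 0.657), and 22 genes in all passed.

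Whether Kit, Kitl and Pdgfrb passed depended on how the variance and the scale were handled. With an intensity trend in the variance model Kit, Kitl, Pdgfrb and Pdgfc passed, at adjusted p of 0.0447, 0.0347, 0.019 and 0.047, when 336 genes passed in all. With probe sets below the median left out, Kitl and Pdgfrb passed (adjusted p = 0.033 and 0.0222), and likewise with quantile normalization repeated (adjusted p = 0.0255 and 0.0496). In all, 291 of 11857 genes passed in the first of these fits and 281 of 19938 in the second. Centred on the 75th percentile, Kit, Kitl and Pdgfrb stood at adjusted p of 0.158, 0.0921 and 0.172. Of the 17 alternatives, 4 brought Kit past the threshold, 5 Kitl, 5 Pdgfrb, 2 Pdgfc, 1 Ano1 and 1 Pdgfa. The direction of these 6 was the same in each of the 17, and in the 6 fits without 1 array it could not differ, since their groups do not overlap.

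**Figure D5:**
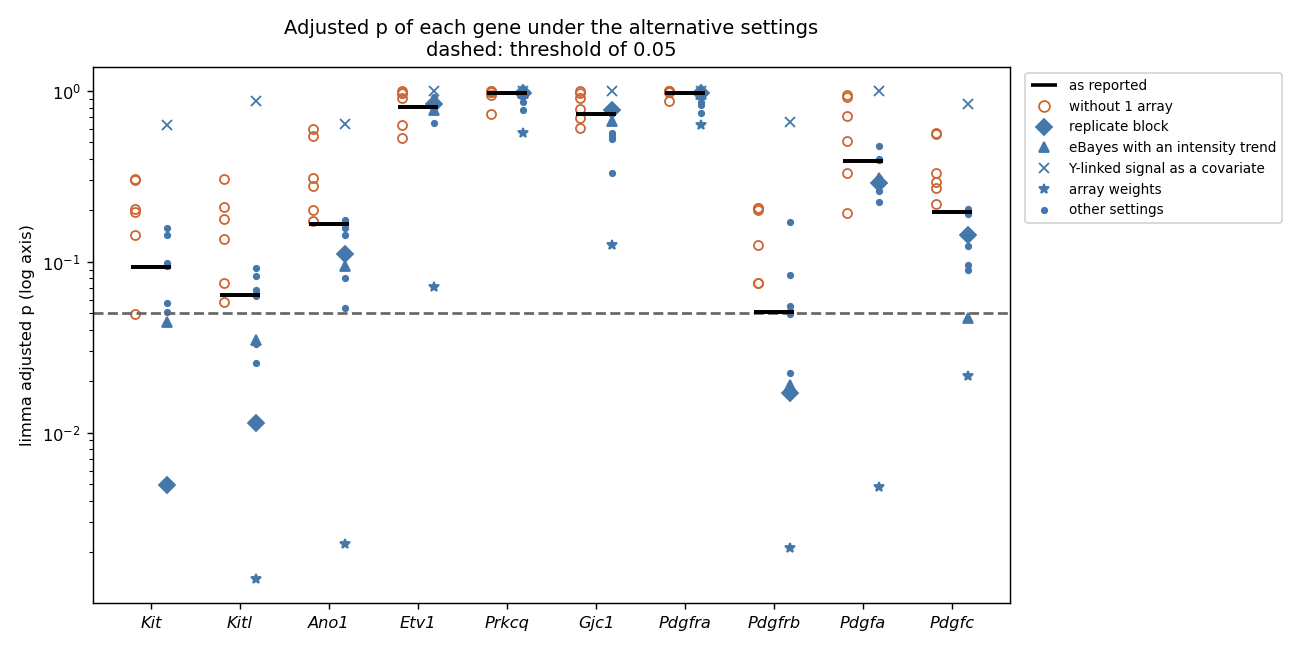
Limma adjusted p (log axis) of each gene as reported (black bar), in the 6 fits that leave out 1 array (open circles) and in the other 11 settings (blue), with the threshold of 0.05 dashed. Kitl and Pdgfrb fall below the line in 5 settings each and Kit in 4, while Etv1, Prkcq, Gjc1 and Pdgfra stay above it in all.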

How the data were processed

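The deposited values are log2 signals of 35556 probe sets on 6 arrays. The authors used RMA and affy, per the submitters' processing notes, in versions not given in the sources used here. Such values, normalized across arrays, hide a change in total RNA and compress differences of dim probe sets. Groups came from the sample titles, and symbols from the platform's annotation. It named 1 gene for 21789 of them, and the 13767 others were not used. The members and lists were chosen with earlier results of these data known, and 9 of 195 listed genes were not analysed here.

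The probe set with the highest mean represented each of 19938 genes. The groups were compared by lmFit and eBayes of limma 3.58.1 (R 4.3.3), with Benjamini-Hochberg adjustment over all genes and a threshold of 0.05; the scripts were tested on simulated data. Changes are SmoM2 minus wild type on the log2 scale. The number of arrays limits the precision.

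The text names the 10 members, of each list up to 4 genes past the threshold or else the 2 with the largest change, and the 3 genes nearest in profile to Kit, Kitl and Pdgfra. Des, Ednrb and Gata4 were named beside these with their values known. They are not in the counts of named genes or of single calls under other settings. Alternatives were a block for replicate number, fits without each array, a filter on dim probe sets, other probe sets, other scalings, other variance models, array weights and a Y-linked covariate. List means without the gene of largest change, and profile differences under other scalings and without each array, were added after seeing the data. The labels do not say whether replicate numbers pair the arrays. Deviations from the group means correlated at -0.10, 0.52 and 0.06 for numbers 1, 2 and 3, and at -0.60 to 0.52 between unlike numbers. With 3 arrays in a group these values depend on one another and cannot settle a pairing.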

Additional observations from a re-analysis of the deposited data

How the results depend on the processing

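As reported, 0 of the 10 genes and 196 of all genes passed. With the replicate number as a block these were 3 (Kit, Kitl and Pdgfrb, at adjusted p of 0.0049, 0.0113 and 0.0172) and 698. The labels do not say that the numbers pair the arrays, and not every array correlated best with its own number. With an intensity trend 4 and 336 passed, and with array weights 6 and 4110. Among probe sets above the median these were 2 and 291, of the 11857 genes kept. With quantile normalization repeated they were 2 and 281. The array weights ran from 0.327 to 6.02 and their estimation stopped before it converged. With centring on the 75th percentile 83 genes passed, 36 higher and 47 lower against 65 and 131, and with the Y-linked covariate 22. Leaving out 1 array gave 0 to 1 of the 10 genes and 32 to 247 of all genes: 51, 62, 80 and 32 without wild type 1, wild type 2, SmoM2 1 and SmoM2 3. The other settings kept both counts within 1.5 times. The scalings moved the median of all genes to at most 0.06. The cause of these differences was not tested.

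Signs turned in genes with small changes. Leaving out 1 array, Prkcq ranged from -0.032 to 0.12, Pdgfra from -0.0075 to 0.065, Tyrp1 from -0.0055 to 0.17, Mlana from -0.033 to 0.21 and Cd3d from -0.054 to 0.17. With the Y-linked covariate Tyrp1, Mlana and Cd3e went to -0.018, -0.11 and -0.043, and with array weights Cd3d went to -0.011 and Hcn4 to 0.0033. Among the named genes outside the 10, single calls were lost 101 times over these settings (8 of them for Pdgfd) and gained 34 times.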
